A study of Mus musculus with 4 samples.

Results

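The cytosolic ribosomal proteins were followed at the level of their transcripts in cultured mouse B cells that carried 1 or no functional copy of Aff3. The genes were taken by name: every gene whose symbol is Rpl or Rps followed by a number, together with the stalk proteins Rplp0, Rplp1 and Rplp2 and the laminin receptor Rpsa, leaving out pseudogenes and the ribosomal protein S6 kinases. A probe counted when its transcript accession belonged to such a gene in a RefSeq gene table. This gave 165 of the 39429 probes on the array, for 79 genes, of which 30 encode proteins of the small subunit and 49 of the large. At least 1 probe was well above background on both arrays of a genotype for 77 of these genes, among 20637 features tested in all. The rule reads names alone. Rps23, for which no probe matched by accession, was not analysed here.

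CD43-negative spleen B cells of 2 genotypes, Aff3+/- and Aff3-/-, were cultured for 3 days with LPS at 10 ug/mL plus IL-4 at 10 ng/mL, and their RNA was hybridised to 1-colour Agilent arrays, 2 arrays per genotype. LPS drives B cells to divide and secrete antibody, and IL-4 adds a signal for class switching. The control genotype carries 1 Aff3 allele, so no array shows cells with both copies. Strain, age and the design of the Aff3 allele are not given in the sources used here. Nothing in the labels tells separate mice from repeat samples of one, and the p-values therefore measure the spread between these samples, which may be technical. The series title names the effect of Aff3 deficiency on gene expression as its question.

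The ribosome joins a small subunit, which reads the mRNA, and a large subunit, which forms the peptide bond. Their proteins are made in matched amounts, and the mRNAs of nearly all of them begin with a C followed by a tract of pyrimidines, the terminal oligopyrimidine (TOP) motif, through which mTORC1 and its partner Larp1 set their translation. Resting B cells hold few ribosomes and build many on activation. Much of that control acts on translation and on rRNA synthesis, which an array of mRNA levels does not measure. The mouse genome also holds many processed pseudogenes of these genes, so a probe's brightness may include near-identical transcripts.

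Sequences around the annotated transcript start are shown for 7 of the genes, because the TOP motif lies at the start of the mRNA. Each runs from 40 bases before to 25 bases after the first annotated base, 5′ to 3′ on the gene's strand, from RefSeq on GRCm38.p6, and capitals mark the longest run of C and T. The first 4 genes have a C at the annotated start followed by 4 or more pyrimidines, and the last 3, which are described for their values below, do not.
Rps6, chr4:86857343-86857407, minus strand: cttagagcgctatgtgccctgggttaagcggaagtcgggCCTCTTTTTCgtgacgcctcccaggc
Rps18, chr17:33955641-33955705, minus strand: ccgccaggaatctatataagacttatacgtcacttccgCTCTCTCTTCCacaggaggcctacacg
Rplp2, chr7:141447611-141447675, plus strand: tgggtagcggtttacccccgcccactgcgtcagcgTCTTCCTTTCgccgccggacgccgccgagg
Rpl35, chr2:39005107-39005171, minus strand: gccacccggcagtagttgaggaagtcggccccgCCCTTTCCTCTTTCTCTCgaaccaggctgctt
Rpl11, chr4:136053369-136053433, minus strand: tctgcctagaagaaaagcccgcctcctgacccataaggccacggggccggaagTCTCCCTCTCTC
Rpl39, chrX:37085198-37085262, minus strand: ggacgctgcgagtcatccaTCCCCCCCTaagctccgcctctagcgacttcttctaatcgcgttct
Rpl39l, chr16:10170188-10170252, plus strand: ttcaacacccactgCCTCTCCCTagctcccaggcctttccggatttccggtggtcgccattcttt
The RefSeq promoter table held 71 start sites for 59 of the 79 genes. A C at the annotated start followed by 4 pyrimidines stood at 13 of the 71 (18.3%), against 823 of all 32851 start sites in the table (2.51%). The 13 genes were Rpl14, Rpl15, Rpl28, Rpl35, Rpl35a, Rpl38, Rplp2, Rps10, Rps15a, Rps18, Rps21, Rps27 and Rps6. A pyrimidine run of 8 or more lay within the 65-base window at 40 of the 71 (56.3%), against 25.6% of all start sites. In Rpl11 such a run ends at the edge of the window downstream of the annotated base.

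Each array held 43020 gene spots, of which none was saturated, and between 24942 and 25862 of the 39429 probes were well above background. All 4 arrays shared 1 slide and 1 scan. The Aff3 transcript matched no probe by accession and was not analysed here, so the genotype of each array rests on its label. All 8 B cell markers were well above background on all 4 arrays, as were 6 of 6 plasma cell markers. Of the markers of other cells, 6 of 8 for T cells, 4 of 7 for myeloid cells, 4 of 8 for erythroid cells and 2 of 6 for NK cells were also above background on all 4 arrays, while Cd3g, Ncr1, Klrb1c and Alas2 were so on none.

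Aff3-/- and Aff3+/- cells were compared to ask whether ribosomal protein transcripts differ without Aff3. No ribosomal protein gene passed the test, and the differences were small. The median of the 77 genes was a log2 difference (Aff3-/- minus Aff3+/-) of -0.018, against -0.011 over all features, and 76 of the 77 genes (98.7%) differed by less than 0.1, against 63.4% of all features. These shares were not matched for brightness: Rps27a held the highest gene-spot intensity on both replicate 1 arrays. The genes' median pooled SD was also smaller, at 0.077 against 0.14 over all features. Whether their brightness narrowed the differences was not tested. No gene passed an adjusted p of 0.05 in limma (Benjamini-Hochberg over all 20637 features), where 0% of all features passed, and none had an unadjusted p under 0.05, which 420 features (2.04%) had. The smallest unadjusted p was 0.115 in limma, for Rpl39l, with an adjusted p of 1.00. The median standard error was 0.12, and the 95% intervals of 75 of the 77 genes lay within 0.5 of 0 on the log2 scale, so that these arrays leave room for changes below that size. The values are from bulk RNA scaled to each array's 75th percentile: fewer cells of a type and less RNA per cell cannot be told apart, and a change shared by most transcripts would not show.

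**Figure D1:**
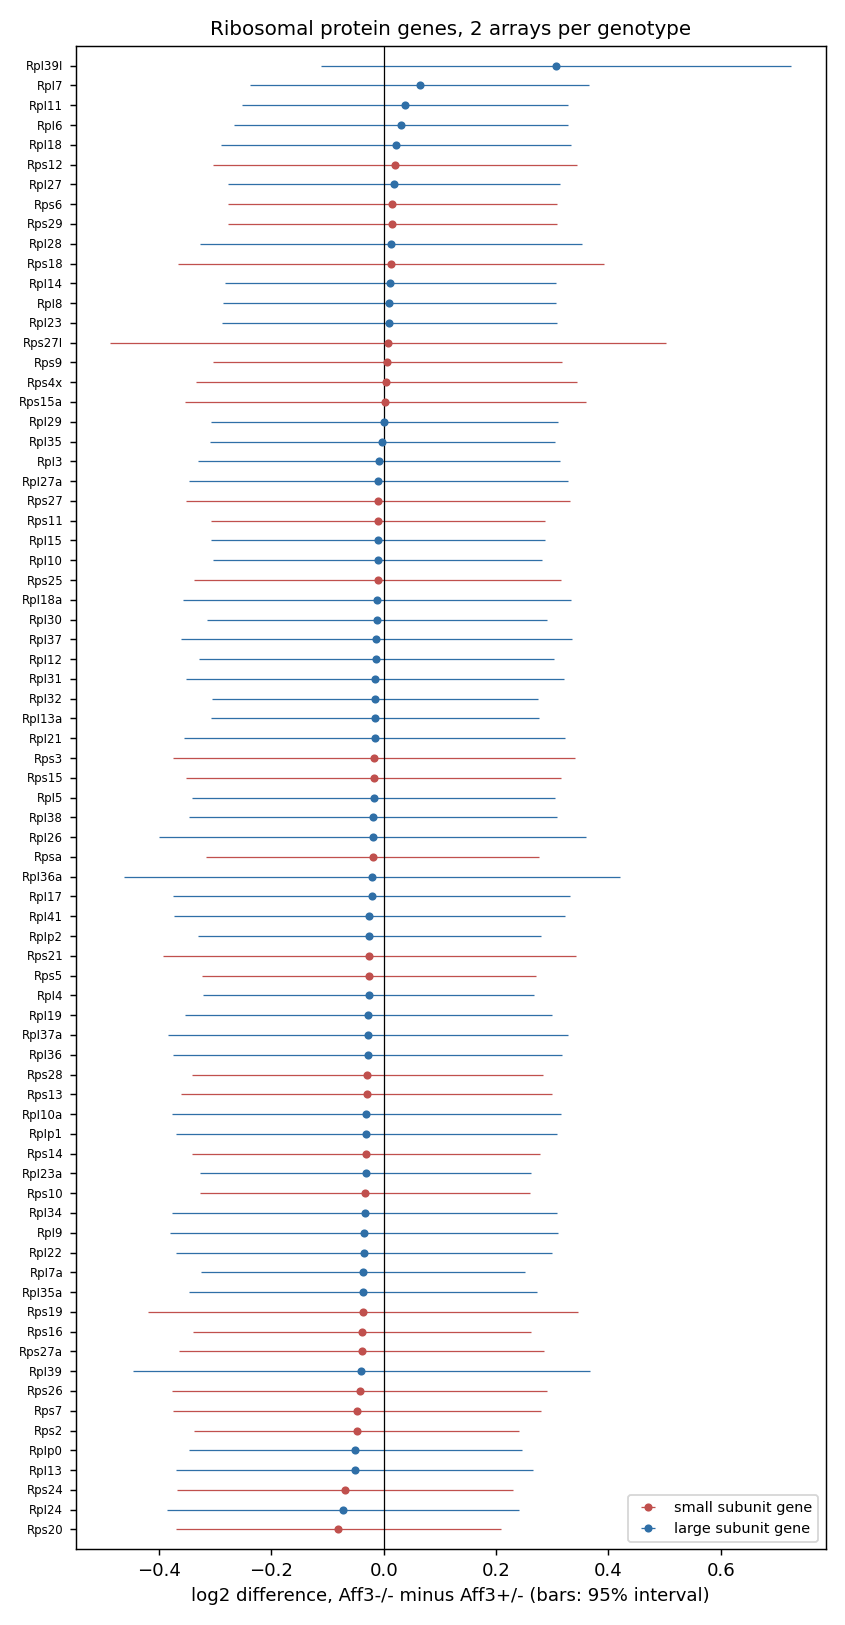
Log2 difference between Aff3-/- and Aff3+/- cells for 75 of the 77 ribosomal protein genes tested, ordered by size, with 95% intervals from limma over 2 arrays per genotype. Every interval spans 0; Rpl39l at +0.31 stands apart from the other 74 genes shown, which lie between -0.081 and +0.064.

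By direction, 57 genes were lower (74%, against 54.5% of all features) and 20 higher (26%, against 45.5%) in Aff3-/- cells. With each array scaled to its median instead, 50 were higher and 27 lower, and the median over all features moved from -0.011 to +0.016. Without Aff3+/- replicate 1 the count was 59 higher and 18 lower, and leaving out Aff3-/- replicate 2 it was 65 higher and 12 lower. The median member moved to +0.021 and +0.045 in those 2 cases, to -0.081 when Aff3-/- replicate 1 was left out, and to -0.054 for Aff3+/- replicate 2. Over all features the medians with the same arrays left out, in that order, were -0.014, -0.0081, -0.020 and -0.011. The small subunit genes (median -0.020, 9 higher and 21 lower) and the large subunit genes (median -0.016, 11 higher and 36 lower) lay close to each other.

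In 4 genes both Aff3-/- arrays lay below both Aff3+/- arrays (11.2% of all features did) and in 2 genes both lay above (8.35% of all features). Together these are 7.79% of the genes, against 19.5% of all features. With each array's median as the scale there were 14 such genes higher, where 11.4% of all features were, and 3 lower, where 8.47% were, so this split depended on the scaling. The 4 lower genes were Rps20, Rps24, Rps2 and Rpl7a, and the 2 higher ones Rpl11 and Rpl39l.

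Rps20, a protein of the small subunit head, had the lowest difference. Its level, on the log2 scale with each array's 75th percentile at 0, was 7.70 and 7.67 on the Aff3+/- arrays and 7.60 on both Aff3-/- arrays. The genotypes did not overlap, at a log2 difference of -0.081 ± 0.109 (SE, n = 2 arrays per genotype; limma, adjusted p = 1.00), about 0.946 of the control level. The SE exceeds the replicates' own spread (pooled SD 0.016) because limma draws each gene's variance toward that of all features. Rps24, a small subunit protein whose gene is one of those mutated in Diamond-Blackfan anaemia, was at 7.90 and 7.83 in Aff3+/- cells and at 7.82 and 7.77 in Aff3-/- cells, a difference of -0.068 ± 0.113. Its lower control array and its higher Aff3-/- array lay almost together. The probes for the other 2 Rps24 transcript variants gave -0.079 and -0.11, both also lower.

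Rps2, which lines the mRNA entry channel of the small subunit, was at 7.44 and 7.45 in Aff3+/- cells against 7.41 and 7.38 in Aff3-/- cells (-0.048 ± 0.109), and its second probe gave -0.072, again without overlap. Rps3, the neighbouring entry channel protein, stood at -0.017 ± 0.135 with overlapping arrays. Rpl7a, a large subunit protein, was at 6.71 and 6.73 against 6.68 and 6.69 (-0.036 ± 0.109). Of its other 3 probes, one gave -0.061 without overlap, and the dimmer ones gave -0.036 and +0.012 with overlapping arrays. Its pooled SD, 0.0081, was the smallest of the 77 genes, so the separation was a small one within tight replicates.

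Among other small subunit genes, Rps7 (-0.047 ± 0.124) and Rps26 (-0.043 ± 0.126) were among the 8 lowest, and Rps12 (+0.020 ± 0.122) was among the 8 highest. Rps6, the substrate of the S6 kinases downstream of mTORC1, was at 7.68 and 7.65 in Aff3+/- cells and at 7.71 and 7.66 in Aff3-/- cells, a difference of +0.016 ± 0.111 with overlapping arrays. Rps19, the gene most often mutated in Diamond-Blackfan anaemia, stood at -0.037 ± 0.145, and Rps14, whose loss underlies the anaemia of the 5q- syndrome, at -0.032 ± 0.117. Rpsa, which doubles as a laminin receptor, was at -0.020 ± 0.112, and the X-linked Rps4x at +0.0044 ± 0.128. Another bright Rpsa probe gave +0.11 without overlap, and its dimmer probes gave -0.0059 and -0.097. Over the 14 genes listed for Diamond-Blackfan anaemia the median was -0.024, with 4 higher and 10 lower. That median was +0.0024 with each array's median as the scale.

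Rps27a is translated as a fusion with ubiquitin, which is then cut off. It was at 8.53 and 8.43 in Aff3+/- cells and at 8.51 and 8.37 in Aff3-/- cells, with overlapping arrays and a difference of -0.039 ± 0.123.

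In the large subunit, Rpl24, which forms a bridge between the subunits, had the lowest difference of its subunit and the second lowest of all 77 genes. Its level was 7.88 and 7.78 in Aff3+/- cells and 7.81 and 7.70 in Aff3-/- cells, a difference of -0.072 ± 0.119. The arrays of the genotypes overlapped, since Aff3-/- replicate 1 lay above Aff3+/- replicate 2. Rpl13 (-0.051 ± 0.120) was also among the 8 lowest. Rpl13a, which has a role outside the ribosome in silencing inflammatory mRNAs, stood at -0.016 ± 0.111, and Rpl10, the X-linked protein that joins the large subunit late in its assembly, at -0.011 ± 0.111. The other Rpl10 probes gave +0.069 without overlap and -0.029 with overlapping arrays.

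The stalk, which recruits the elongation factors, is built of Rplp0, Rplp1 and Rplp2. Rplp0 was at 8.37 and 8.30 in Aff3+/- cells and at 8.30 and 8.27 in Aff3-/- cells, a difference of -0.051 ± 0.112. Rplp1 and Rplp2 gave -0.031 ± 0.128 and -0.025 ± 0.115, so that all 3 were lower, though with each array's median as the scale 1 was higher and 2 lower. The 8 genes listed around the exit tunnel, through which the new chain leaves, had a median of -0.025 with none higher. With each array's median as the scale 4 of the 8 were higher, and without Aff3-/- replicate 2 the median was +0.054. Rpl22, an exit-side protein also known for a role in T cell development, stood at -0.035 ± 0.127 and Rpl39, a short protein at the tunnel wall, at -0.040 ± 0.154.

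Rpl5 and Rpl11 carry the 5S rRNA and, when unassembled, bind Mdm2 and stabilise p53. Rpl5 was at 6.73 and 6.66 in Aff3+/- cells and at 6.75 and 6.60 in Aff3-/- cells (-0.018 ± 0.122, overlapping). Rpl11 was at 8.02 and 8.03 against 8.08 and 8.04, higher on both Aff3-/- arrays by +0.037 ± 0.110 in mean. The other 2 Rpl11 probes pointed the other way, at -0.055 and -0.073, and averaging its 3 probes gave -0.030. Rpl7, at 7.43 and 7.37 against 7.42 and 7.51 (+0.064 ± 0.114), Rpl6 (+0.031 ± 0.112), Rpl18 (+0.022 ± 0.118) and Rpl27 (+0.018 ± 0.112) were also among the 8 highest, each with overlapping arrays. The mean of the Rpl6 probes was also below 0, at -0.026.

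Some ribosomal proteins have a paralogue of restricted use. Rpl39l, the paralogue of Rpl39 best known from testis, was dim but well above background on all 4 arrays. Its level was -4.02 and -4.37 in Aff3+/- cells and -3.91 and -3.87 in Aff3-/- cells, which is 78.6 and 65.6 against 88.2 and 88.3 intensity units. Both Aff3-/- arrays were higher, and 1 Aff3+/- array was clearly the lowest. The difference was +0.31 ± 0.158 (95% interval -0.11 to 0.73; limma, adjusted p = 1.00), a 1.24-fold higher mean that did not pass the test. Rpl39 itself was at 7.47 and 7.31 against 7.49 and 7.21, with overlapping arrays. None of the other 76 genes tested under the naming rule differed by more than 0.1 on the probe that stood for the gene.

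Rps27l, a paralogue of Rps27 that p53 induces, was at 4.88 and 5.05 in Aff3+/- cells and at 4.76 and 5.19 in Aff3-/- cells. The Aff3-/- arrays lay on either side of both controls, so the mean difference was only +0.0079 ± 0.187, while Rps27 was at -0.010 ± 0.129. Rps27l was higher on the replicate 2 array of each genotype, by 0.16 and 0.43, whereas of the other 76 genes Rpl7a alone was so, by 0.014 and 0.0075. Rpl10l, a testis paralogue of Rpl10, was not well above background on any array with either of its 2 probes, and Rpl3l, the muscle paralogue of Rpl3, was so on 1 of 4 arrays, so neither was tested. Rps4l, annotated as a transcribed pseudogene and therefore not counted here, gave +0.17 ± 0.294 with values of -0.54 and -0.04 against +0.20 and -0.45.

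The genes also differed together between arrays of one genotype. As a deviation from each gene's own mean over the 4 arrays, the median was +0.044 on Aff3+/- replicate 1 and +0.051 on Aff3-/- replicate 1, but -0.027 on Aff3+/- replicate 2 and -0.072 on Aff3-/- replicate 2. Over all features the same medians lay between -0.015 and +0.0065. Of the 77 genes, 67 (87%) had their lowest value on Aff3-/- replicate 2, against 34.9% of all features, and 40 (51.9%) their highest on Aff3-/- replicate 1, against 25.5%. With each array's median as the scale the first count was 31 (40.3%, against 25.6% of all features), and with quantile normalization it was 26 (33.8%, against 30.8%).

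**Figure D2:**
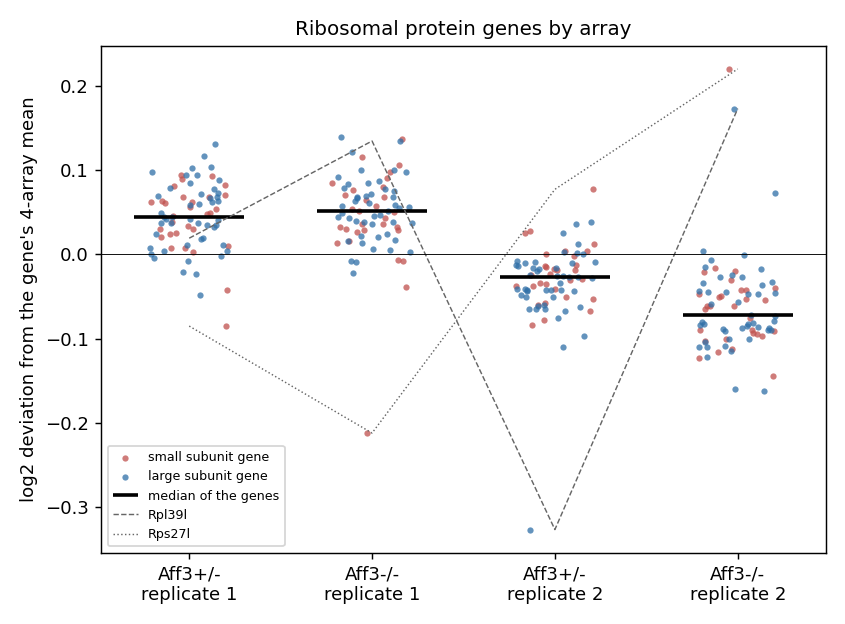
Deviation of each of the 77 ribosomal protein genes from its own mean over the 4 arrays (log2), by array; black bars are medians, and lines trace Rpl39l and Rps27l. On this scale the medians fall from +0.044 and +0.051 in the replicate 1 arrays to -0.027 and -0.072 in the replicate 2 arrays, a span that is smaller when each array is scaled to its median.

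Taken within a replicate number, with 1 array per genotype and hence no test, the directions differed. In number 1 the median was +0.0071 and 43 genes (55.8%) were higher in Aff3-/- cells, against 47% of all features. In number 2 the median was -0.039 and 70 genes (90.9%) were lower, against 54% of all features. Opposite signs in the 2 numbers were seen in 44 genes (57.1%, against 47.8% of all features), and 40 of these (51.9% of the 77, against 24.4%) were higher in number 1 and lower in number 2. Scaled to each array's median, 52 of the 77 genes were higher in number 1, as were 10682 of all 20637 features. In number 2, 40 genes were then lower (51.9%, against 43.3% of all features). The median pooled SD between the 2 arrays of a genotype was 0.077, against 0.14 over all features.

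**Figure D3:**
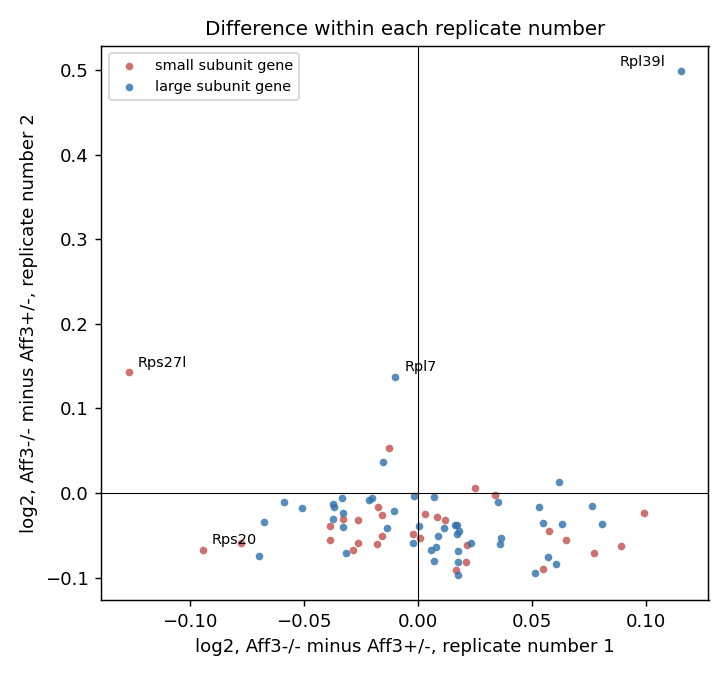
Log2 difference between Aff3-/- and Aff3+/- arrays in replicate number 1 (horizontal) and number 2 (vertical) for the 77 ribosomal protein genes, 1 array per genotype in each. Most points lie below the horizontal line and on both sides of the vertical one; Rpl39l, at +0.12 and +0.50, is above 0 in both, and scaling to each array's median moves the points upward.

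Markers of other cells and of cell state moved across the same arrays. The mean log2 level of the 8 B cell markers was 4.03 and 4.004 on the replicate 1 arrays (Aff3+/- then Aff3-/-) and 3.83 and 3.71 on the replicate 2 arrays. The means of the other lists cover the markers tested, so that dim ones are left out. The 5 tested of 8 erythroid markers stood at -3.93, -3.42, -3.87 and -4.68 in the same order, lowest on Aff3-/- replicate 2. The 4 tested of 7 myeloid markers (-2.26, -2.18, -2.32 and -2.56) were also lowest there. The means of the 7 of 8 T cell markers (-2.39, -2.25, -2.37 and -2.34) and 2 of 6 NK markers (-3.56, -3.64, -3.48 and -3.49) were not. In the T cell list, however, 6 of the 7 lay below their own mean on that array, and 1 lay at +0.82. Their median deviations were +0.082 and +0.092 on the replicate 1 arrays, and -0.0069 and -0.085 on the replicate 2 arrays, lowest on Aff3-/- replicate 2. The 6 plasma cell markers (-0.28, 0.0016, 0.098 and 0.16) had their highest mean on Aff3-/- replicate 2. The part of these markers in the array pattern of the ribosomal protein genes was not tested.

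Of the 79 genes, 51 had more than 1 probe, and the most was 7, for Rpl17. In the 49 genes with several probes above background, the highest and lowest probe differed by a median of 0.040 in their log2 difference, and by less than 0.1 in 42 genes. The probes of 21 genes lay on both sides of 0. The widest spread was in Rps27a, whose bright probes gave -0.039 and -0.086, while a dim probe for another accession of the gene gave +0.20, at 63.6 and 81.9 intensity units in Aff3+/- cells and 69.5 and 97.6 in Aff3-/- cells. Rpsa followed, with 4 probes between -0.097 and +0.11, then Rps15a, with 3 probes between -0.12 and +0.0031. Fitted probe by probe, 14 of 161 probes (8.7%) separated the genotypes without overlap, against 19.6% of all probes, and 125 (77.6%) had a difference below 0, against 55%. None had an unadjusted p under 0.05, which 1.97% of all probes had (limma).

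**Figure D4:**
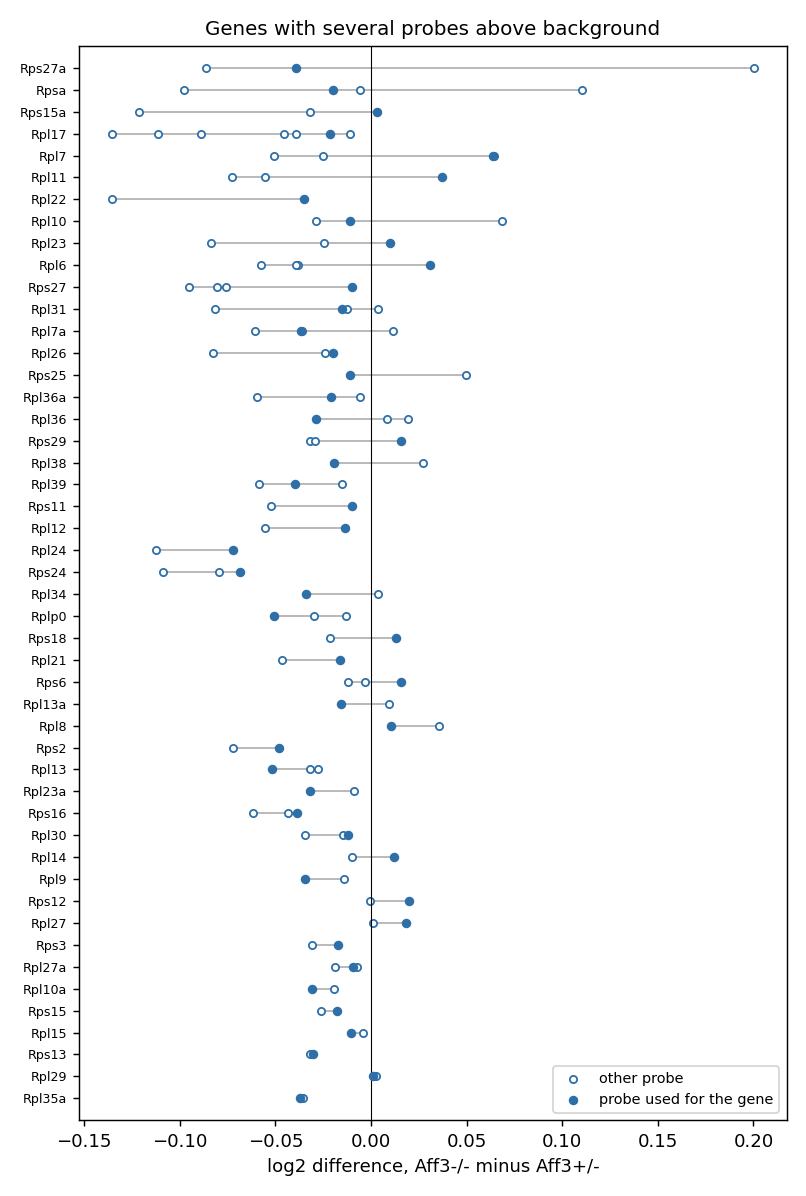
Log2 difference between Aff3-/- and Aff3+/- cells for each probe above background, in 48 of the 49 ribosomal protein genes with several such probes, ordered by the spread between probes; filled points mark the probe that stands for the gene. Rps27a and Rpsa spread by more than 0.2, and 42 of the 49 genes by less than 0.1.

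Some probes shifted between replicate numbers in both genotypes. The second Rpl22 probe read 6820 and 6858 intensity units on the replicate 1 arrays (Aff3+/- then Aff3-/-) and 5331 and 4334 on the replicate 2 arrays. Rps24 also has a dimmer probe of this kind, which read 8797 and 9293 in number 1 and 8431 and 6770 in number 2. The genotype differences of these 2 probes were -0.14 and -0.11.

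Other ribosomal protein genes carry symbols that the naming rule leaves out. Of those reported here, Fau, which is made as a fusion with a ubiquitin-like protein, stood at -0.060 ± 0.117. The others were the scaffold Rack1 (-0.026 ± 0.109), Rps3a1 (-0.0012 ± 0.119), and the paralogues Rpl36al (-0.0084 ± 0.120), Rpl22l1 (-0.10 ± 0.152) and Rpl7l1 (-0.12 ± 0.192). Rack1 turned to +0.00096 with each array's median as the scale.

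The other genes of translation are given from lists, none of whose genes passed the adjusted threshold or an unadjusted p of 0.05 in limma. The 18 elongation factors and other genes with TOP mRNAs had a median of -0.0043 (8 higher, 10 lower), which turned to +0.023 (13 higher, 5 lower) with each array's median as the scale, to +0.015 with quantile normalization, to +0.013 with arrays centred on the ribosomal protein genes, to +0.033 (14 higher, 4 lower) without Aff3-/- replicate 2 and to +0.0089 without Aff3+/- replicate 1. In this list were Eif4b, which helps unwind the mRNA for initiation, at +0.087 ± 0.125, and Eef1a1, which delivers aminoacyl-tRNA, at -0.060 ± 0.115. The 25 initiation factors had a median of +0.073 (22 higher, 3 lower), with Eif3c at +0.15 ± 0.131 and Eif2b2 at +0.13 ± 0.113. The 40 ribosome assembly genes had a median of +0.062 (36 higher, 4 lower), with Nop14 at +0.20 ± 0.148 and Wdr12 at +0.17 ± 0.157. Both directions turned on single arrays: leaving out Aff3-/- replicate 2 the medians were -0.049 and -0.17, without Aff3+/- replicate 1 -0.0014 and -0.061, without Aff3-/- replicate 1 +0.19 and +0.30, and without Aff3+/- replicate 2 +0.15 and +0.21.

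The 14 RNA polymerase I genes, which transcribe rRNA, had a median of +0.039 (10 higher, 4 lower; Twistnb +0.076 ± 0.133, Taf1d +0.061 ± 0.109). The 13 genes listed as chaperones and importins of ribosomal proteins had +0.053 (9 higher, 4 lower), though Nemf in this list is neither. Among these Tsr2, the escort of Rps26, was at -2.17 and -2.09 in Aff3+/- cells and -1.93 and -1.97 in Aff3-/- cells, without overlap, at +0.18 ± 0.113, and Nemf was at -0.095 ± 0.113. These medians turned on single arrays too: without Aff3-/- replicate 2 they were -0.080 (5 higher, 9 lower) for RNA polymerase I and -0.092 (5 higher, 8 lower) for the chaperones and importins, and without Aff3+/- replicate 1 -0.043 and -0.047, with the same counts. The 23 genes of mTORC1 and S6 kinase signalling had +0.023 (12 higher, 11 lower), which turned to -0.0059 without Aff3-/- replicate 2 and to -0.0051 with the mean of probes, with the translation repressors Eif4ebp1 at +0.20 ± 0.188 and Eif4ebp2 at -0.18 ± 0.132.

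Across arrays the assembly genes ran opposite to the ribosomal proteins. Their median deviation was -0.17 and -0.18 on the replicate 1 arrays (Aff3+/- then Aff3-/-) and +0.092 and +0.26 on the replicate 2 arrays, where the ribosomal proteins were at -0.027 and -0.072. Within number 2 all 40 assembly genes were higher in Aff3-/- cells, against 7 of the 77 ribosomal protein genes, and within number 1 it was 18 of 40 against 43 of 77. With 1 array per genotype within a number, this contrast has no test. Its ribosomal protein side also depended on the scaling. With each array's median as the scale, 40 of the 77 ribosomal protein genes were lower within number 2 (51.9%, against 43.3% of all features). With quantile normalization it was 39 (50.6%, against 49.2%). The ribosomal proteins' median deviations on the replicate 2 arrays (Aff3+/- then Aff3-/-) were then -0.0236 and -0.0309, and -0.00275 and -0.0139.

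**Figure D5:**
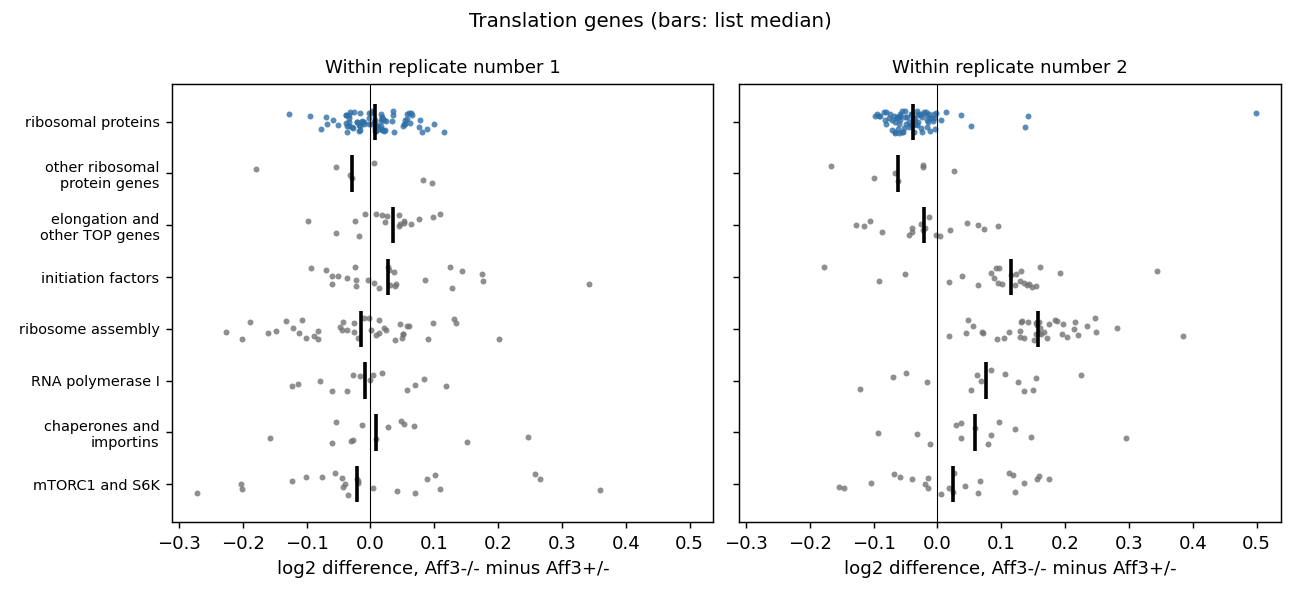
Log2 difference between Aff3-/- and Aff3+/- arrays within replicate number 1 (left) and number 2 (right) for the ribosomal protein genes and lists of related genes; each point is a gene, and bars are list medians. Ribosomal proteins have medians of +0.0071 and -0.039, ribosome assembly genes -0.015 and +0.16.

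Genes with and without the motif at the exact annotated start lay close to each other. Only the annotated base was read, so a gene whose pyrimidine tract lies off that base counted as without it. The comparison therefore cannot tell genes with TOP mRNAs from others. The 13 genes with a C and 4 pyrimidines at an annotated start had a median log2 difference of -0.010, and the 44 other tested genes with a promoter sequence -0.020. Of other motifs searched on both strands of the 300-base promoter, CCGGAA stood in 34 of the 71 (47.9%, against 14.9% of all promoters), GGGCGG in 41 (57.7%, against 35.7%), CACGTG in 8 (11.3%, against 7.15%) and TATAAA in 6 (8.45%, against 13.6%).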

How the data were processed

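Per the labels' protocols, Cy3-labelled cRNA from 150 ng of RNA was hybridised to 4 arrays. Per the submitters' processing notes and the file headers, the deposited scanner files hold background-subtracted intensity values from Agilent Feature Extraction 10.7.1.1, with no normalization between arrays. Control spots and outlier flags were left out. Log2 processed signal minus the array's 75th percentile was averaged over a probe's spots. Probes well above background on both arrays of a genotype were kept, and the probe of highest mean signal stood for its gene. RefSeq accessions named 26581 of 39429 probes through a GRCm38.p6 gene table, while the array grid cites mm9. Genotypes were compared with limma 3.58.1 (R 4.3.3; lmFit and eBayes, two-sided, all 4 arrays), tested on simulated data. The number of arrays limits the precision.

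A table of log2 values is also deposited; its steps are not given in the sources used here. Set against the scanner files, its rows were centred on their median over the arrays, its arrays were scaled within 0.017 of the 75th percentile scaling, and its columns' medians were 0.131, -0.0446, -0.0326 and 0.0194 (Aff3+/- replicate 1, Aff3-/- replicate 1, Aff3+/- replicate 2, Aff3-/- replicate 2). All 25372 of its probes were lower on Aff3-/- replicate 1 than on Aff3+/- replicate 1, against 62.6% of the scanner files' probes, and it holds 83 of the 165 ribosomal protein probes, so it served only as an alternative.

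The ribosomal protein genes and the lists of related genes were chosen with earlier results of these data known. Named genes were those with stated roles, the 8 highest and 8 lowest differences, the 5 with the widest spread between probes, those not above background on some array, the 2 genes of smallest p in each related list, and ribosomal protein genes outside the naming rule; a few of these are not reported here. Of 15 kinds of alternative, 14 were planned and 1, each array centred on the ribosomal protein genes, was chosen after seeing the data. A normexp alternative used median spot and background signals with an offset of 50. Slide and scan were shared by all arrays, so no such block was run.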

Additional observations from a re-analysis of the deposited data

How the results depend on the processing

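No ribosomal protein gene and no other feature passed the adjusted threshold under any alternative, and no ribosomal protein gene had an unadjusted p under 0.05 in any. The median log2 difference of the ribosomal protein genes was -0.018 as reported, +0.0089 with each array's median as the scale, -0.0064 with normexp and -0.033 in the deposited values, and between -0.081 and +0.045 when 1 array was left out. Over all features the medians in the same order were -0.011, +0.016, +0.0076 and -0.059, and between -0.020 and -0.0081. Genes higher without overlap (2 as reported) numbered 4 with normexp, 14 with each array's median, 0 in the deposited values, 1 with probes averaged, 4 probes when each probe was fitted, 9 with arrays centred on the ribosomal protein genes, and 4 to 41 when 1 array was left out. Genes lower without overlap (4 as reported) numbered 0 with normexp, 7 with quantile normalization, 12 in the deposited values, 2 with the mean of probes, 10 probes when each was fitted, and 5 to 68 when 1 array was left out. Over all features, 18.5% to 21.8% had no overlap in either direction under the settings that kept all 4 arrays, and, with 1 array on one side, 45.5% to 73%. By direction, 12.2% of all features were higher without overlap and 9.63% lower with normexp, and 11.4% and 8.47% with each array's median. These shares were 9.83% and 9.67% with quantile normalization, 8.13% and 11.7% with probes averaged, and 8.18% and 11.4% of all probes. With arrays centred on the ribosomal protein genes they were 9.61% and 9.78%. With 1 array left out they were 20.4% to 33.2% and 25.2% to 39.8%. The deposited table holds only probes lower on Aff3-/- replicate 1 than on Aff3+/- replicate 1, so its counts cannot show a rise in that pair. The deposited values covered 56 of the 77 genes, and over all features 0% were higher without overlap and 20.5% lower. Their 12 lower genes therefore cannot be set against the 4 as reported. For the other alternatives the cause was not tested.

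Of the named genes, 9 values turned sign by more than the replicate spread. With normexp these were Rpl10 (+0.025) and, on another probe, Rpl6 (-0.022). In the deposited values they were Rpl11 (-0.073), Rpl6 (-0.058), Rps15a (-0.12) and Eif4b (-0.038), each read from another probe than the one reported, because of what that table holds. With the mean of probes they were Rpl11 (-0.030) and Rpl6 (-0.026), and with each array's median Rack1 (+0.00096). Leaving out an array cannot meet this rule, because it moves a difference by no more than the replicate spread. By sign alone, 21 of 51 named genes turned without Aff3-/- replicate 2 and 15 without Aff3+/- replicate 1. Without Aff3-/- replicate 1 it was 9, and without Aff3+/- replicate 2 it was 5. With each array's median as the scale, 10 of the 51 turned sign. The intensity trend acts on the variances only, so it could not change a sign. The filter on dim probes changed no named gene's sign, but the brightest probe stands for a gene under each filter, so little could change.

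The labels do not say what a replicate number marks, so samples may share only a number. Deviations from the genotype means correlated between same-numbered arrays (r = 0.557 over all features and 0.549 over the ribosomal protein genes, across genes that are not independent). A replicate block leaves each difference as it was, because each number holds 1 array per genotype. The ribosomal protein median was therefore again -0.018. With the block the smallest adjusted p of these genes was 0.759 in limma, and 1461 features had an unadjusted p under 0.05, against 420 without it.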
